A study of Ovis aries with 12 samples.

Results

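HOX genes encode homeodomain transcription factors that give cells of the embryo their position along the head-to-tail axis, and this description covers 9 of them and 1 long noncoding RNA (lncRNA) in the sheep oviduct isthmus. The 10 members are *HOXA5*, *HOXC6*, *HOXB7*, *HOXD8*, *HOXA9*, *HOXB9*, *HOXC9*, *HOXA10*, *HOXD10* and LNC_003065, out of 30740 features, which are the genes with a paired transcript and the lncRNA rows together. They were chosen by their levels over the 12 libraries, which had been seen before, so that the levels and the contrast between libraries below are a description. The unit was FPKM, the fragments assigned to a transcript divided by its length and by the size of the library. Each of the 9 HOX genes was represented by 1 RefSeq transcript. All 12 libraries were labelled oviduct, and whether each holds the same segment and wall layers was not tested.

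The isthmus joins the oviduct to the uterus and has a thick muscle wall. Small-Tailed Han ewes, 2.5 ± 0.5 years old, received a vaginal device with 300 mg of progesterone for 12 days. Tissue was taken 45 to 48 h after its removal for the follicular phase and on day 9 after removal for the luteal phase. The genotypes were FecB BB, homozygous for the Booroola allele of the BMP receptor gene *BMPR1B* that raises ovulation rate, and FecB ++, without it. FecB BB ewes made up MF (follicular) and ML (luteal), and FecB ++ ewes wF (follicular) and wL (luteal). Each group had 3 ewes with 1 library each, numbered MF1 to wL3, and the same breed and hormone treatment were shared by every group. The study asked how phase and genotype change the RNA of the isthmus.

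HOX genes lie in 4 clusters, HOXA to HOXD, and genes at the same place in different clusters form a paralog group. Genes at one end of a cluster (low numbers) act toward the head and genes at the other end (high numbers) toward the tail. In the Müllerian ducts of the mouse, *Hoxa9* marks the future oviduct, *Hoxa10* the uterus, *Hoxa11* the lower uterus and cervix and *Hoxa13* the upper vagina. *HOXA10* stays active in the adult uterus of mice and women, where it responds to ovarian steroids and is needed for implantation.

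4 libraries, 1 or more in 3 of the 4 groups, were set apart with their HOX and marker levels already seen: ML2, ML3, wF2 and wL2. High levels of *HOXA10* or other genes in these 4 libraries are therefore a description and no separate support. In them the summed FPKM of 8 paired smooth muscle markers was 3626 to 7217, against 490 to 2160 in the other 8 libraries. 9 ciliated cell markers summed to 9.59 to 170.0 against 288 to 613, and the epithelial markers *EPCAM* and *KRT8* to 97.7 to 339 against 463 to 724. The sums of stromal markers overlapped (2477 to 4680 against 700 to 4302), as did those of endothelial (59.6 to 107 against 53.1 to 92.7) and leukocyte markers (5.25 to 10.7 against 7.86 to 12.2). Single stromal markers differed. *DCN* was 610 to 823 in the 4 and 274 to 580 in the 8, and *VIM* 305 to 465 and 99.7 to 289. *PDGFRA* was above all 8 in 3 of the 4, while *COL1A2*, *COL3A1* and *LUM* overlapped. 6 markers fixed for endometrium summed to 5.15 to 544 in the 4 and 566 to 3032 in the 8, but the list did not move one way. *SPP1* was 2.31 to 131 in the 4 and 566 to 3031 in the 8, whereas *GRP* (386), *SERPINA14* (6.83) and *CXCL14* (19.3) had their highest level in wF2, and *CXCL14* was 17.2 in ML2. Mesothelial markers (1.41 to 43.7 against 21.3 to 174) and ovarian markers (1.58 to 7.34 against 2.41 to 8.94) overlapped, and red blood cell markers did not exceed 0.777 in any library. Several ciliated markers were near 0 in ML3 and in no other library: *TEKT1* was 0.0448 there, *DNAI1* 0.0268 and *SPAG6* was listed at 0. FPKM sums were 349733 to 456531 per library. Because tissue was sequenced in bulk, fewer cells of a type and less RNA per cell cannot be told apart. These 4 libraries were never averaged or tested as a group.

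*HOXA10* varied more than all but a few genes of the isthmus, and its level went with single ewes and not with a whole group. It read 1.05 FPKM in MF1, 0 in MF2 and 0.113 in MF3, then 0.134 in ML1, 50.3 in ML2 and 57.5 in ML3. The FecB ++ libraries gave 0.0808 in wF1, 36.5 in wF2 and 0.138 in wF3, and 0 in wL1, 11.5 in wL2 and 0.0158 in wL3. ML2, ML3, wF2 and wL2 were thus above every other library, MF1 came next, and the remaining 7 were at or below 0.138. The SD within groups on the log2 scale was 3.80, rank 9 among the 8676 genes tested, where the median gene had 0.44. Among all paired genes *HOXA10* ranked 668 by FPKM in ML2, 513 in ML3, 1236 in wF2 and 3465 in wL2.

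*HOXA9*, the oviduct gene of the mouse series, was high in the same 4 libraries but in another order. Its FPKM was 0.169, 0.0652 and 0.587 in MF1, MF2 and MF3, and 0.185, 32.7 and 9.86 in ML1, ML2 and ML3. In FecB ++ ewes it was 0.784, 12.4 and 0.604 in wF1, wF2 and wF3, and 0.0181, 40.9 and 0.0903 in wL1, wL2 and wL3. The lowest of the 4 was above the highest of the other 8. The ratio of *HOXA10* to *HOXA9* was 1.54 in ML2, 5.83 in ML3 and 2.94 in wF2 but 0.28 in wL2, so that of these 4 libraries only wL2 had more *HOXA9* than *HOXA10*. The within-group SD of *HOXA9* was 3.20, rank 23.

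*HOXD10*, known from the mouse for patterning the limbs and the lumbar motor neurons, separated wL2 from the other high libraries. It was 19.3 FPKM in ML2, 22.4 in ML3 and 8.61 in wF2, while wL2 read 0.205. The rest were close to wL2, with 0.0530 in MF1, 0.137 in MF2, 0.0720 in MF3, 0.253 in ML1, 0.115 in wF1, 0 in wF3, 0.110 in wL1 and 0.132 in wL3. wL2 was therefore below ML1 for this gene although its *HOXA10* was 11.5. ML2 had 94.2 times the *HOXD10* of wL2 at 1.09 times its smooth muscle marker sum. ML3 had 109 times the *HOXD10* and 1.99 times the marker sum. These ratios were chosen after the values were seen. The gene model of *HOXD10* overlaps that of *HOXD11* in the reference, so reads of the pair may have been shared between them.

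LNC_003065, an lncRNA assembled by the authors, read low in 8 libraries and high in the same 4 as *HOXA10*. Its FPKM was 0.160, 0.0364 and 0.125 in MF1, MF2 and MF3, and 0.154, 11.02 and 11.7 in ML1, ML2 and ML3. In wF1, wF2 and wF3 it was 0.191, 4.43 and 0.185, and in wL1, wL2 and wL3 it was 0.115, 1.84 and 0.211. The order ML3, ML2, wF2, wL2 was that of *HOXA10*, and the ratio of *HOXA10* to the lncRNA was 4.56 in ML2, 4.91 in ML3, 8.25 in wF2 and 6.23 in wL2. The ratio of *HOXD10* to the lncRNA was 1.75, 1.91 and 1.95 in ML2, ML3 and wF2 and 0.11 in wL2. The within-group SD of the lncRNA was 2.15, rank 68 of 15431 lncRNA rows, whose median was 0.92. Its genome position was not used here.

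**Figure D1:**
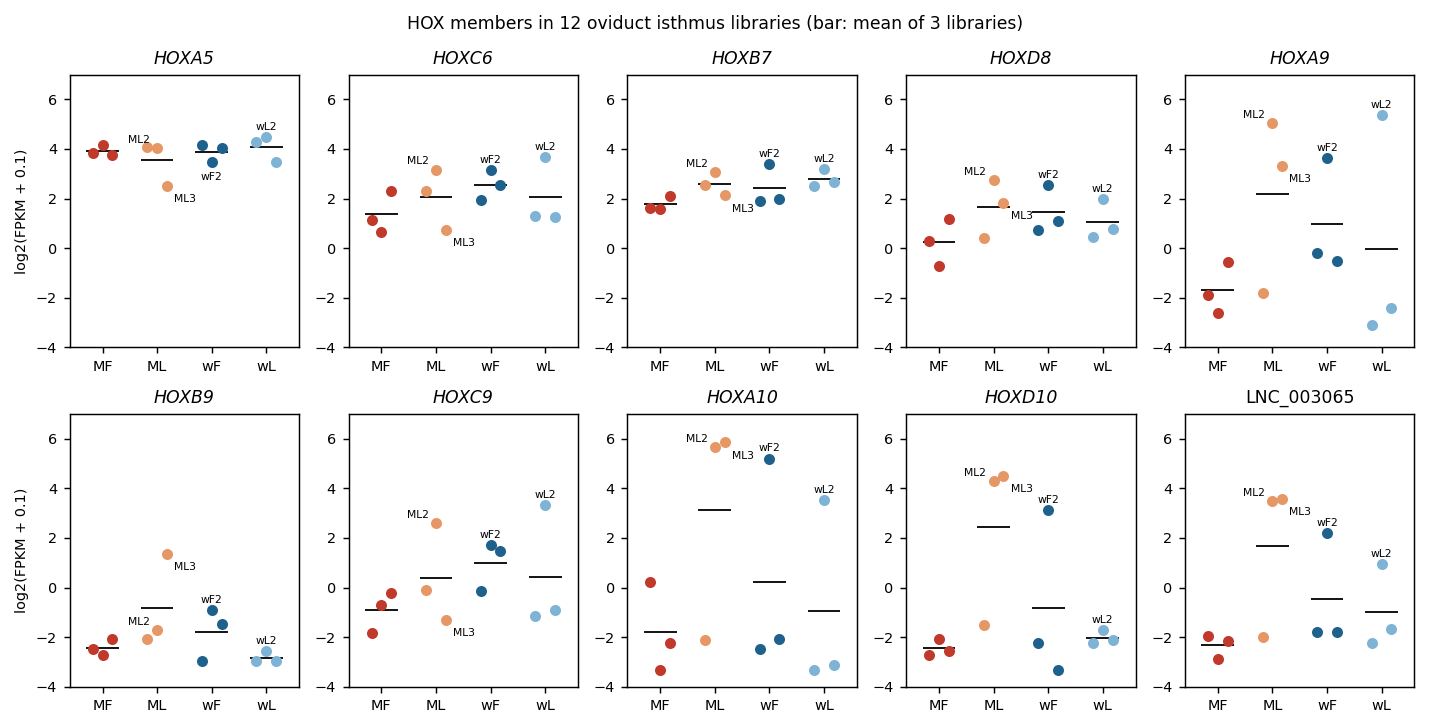
Level of each of the 10 members as log2(FPKM + 0.1) (vertical axis) in the 4 groups (horizontal axis), with 1 point per library and a bar for the mean of the 3 libraries on this scale. For *HOXA10* the points of ML2, ML3 and wF2 lie at 50.3, 57.5 and 36.5 FPKM and that of wL2 at 11.5, while 7 of the other 8 are at or below 0.138; *HOXA5* stays between 5.62 and 22.1 throughout.

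*HOXD8* followed the same 4 libraries over a smaller range. Its FPKM was 1.13 in MF1, 0.514 in MF2, 2.14 in MF3 and 1.21 in ML1, against 6.55 in ML2 and 3.44 in ML3. In FecB ++ ewes it was 1.54 in wF1, 5.75 in wF2 and 2.04 in wF3, and 1.28 in wL1, 3.87 in wL2 and 1.60 in wL3. All 4 were above the other 8, of which the highest was MF3.

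*HOXC6* and *HOXC9*, which act in the thoracic region of the embryo, were high in ML2, wF2 and wL2 but not in ML3. *HOXC9* read 5.91 FPKM in ML2, 3.17 in wF2 and 9.86 in wL2, and 0.301 in ML3. In the other libraries it was 0.184 in MF1, 0.515 in MF2, 0.761 in MF3, 0.826 in ML1, 0.799 in wF1, 2.66 in wF3, 0.351 in wL1 and 0.434 in wL3. wF3 was close below wF2, and among the 8 only MF1 was lower than ML3. *HOXC6* was 8.89 in ML2, 8.67 in wF2 and 12.5 in wL2, and 1.56 in ML3. It was 2.13, 1.45 and 4.80 in MF1, MF2 and MF3, 4.78 in ML1, 3.78 in wF1, 5.80 in wF3, 2.39 in wL1 and 2.31 in wL3. The correlation of *HOXC6* with *HOXC9* was r = 0.92 across the 12 libraries. ML2 had 19.6 times the *HOXC9* and 5.72 times the *HOXC6* of ML3, which are ewes of 1 group, whereas *HOXA10* differed by a factor of 1.14 and *HOXD10* by 1.16 in the other direction (ratios chosen after the values were seen).

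*HOXB9*, a gene of the thoracic skeleton and the mammary gland in the mouse, was low everywhere but in ML3. It was 0.0786, 0.0516 and 0.135 FPKM in MF1, MF2 and MF3, and 0.135, 0.202 and 2.45 in ML1, ML2 and ML3. In wF1, wF2 and wF3 it was 0.0284, 0.432 and 0.261, and in wL1, wL2 and wL3 it was 0.0286, 0.0684 and 0.0277. ML3 had 12.1 times the level of ML2, and only wF2 besides ML3 was above all 8 of the other libraries. *HOXB7* was present in every library, with 3.0, 2.91 and 4.17 FPKM in MF1, MF2 and MF3, and 5.67, 8.21 and 4.27 in ML1, ML2 and ML3. It was 3.59, 10.5 and 3.85 in wF1, wF2 and wF3, and 5.61, 9.03 and 6.25 in wL1, wL2 and wL3. wF2, wL2 and ML2 were its highest libraries, and ML3 lay within the range of the other 8. In the reference the gene models of *HOXB7*, *HOXB8* and *HOXB9* overlap one another, so their separation is uncertain.

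*HOXA5*, which patterns the neck, thorax and lung in the mouse, was the most abundant member in 8 libraries and, with *HOXB7*, the least variable. Its FPKM was 14.3, 17.7 and 13.4 in MF1, MF2 and MF3, and 16.9, 16.3 and 5.62 in ML1, ML2 and ML3. In wF1, wF2 and wF3 it was 17.9, 10.9 and 16.4, and in wL1, wL2 and wL3 it was 19.3, 22.1 and 10.96. ML3 was the lowest library and wL2 the highest, 3.93 times apart, and the 4 libraries lay on both sides of the rest. Its gene model overlaps those of *HOXA3* and *HOXA4* in the reference. The within-group SD was 0.56 for *HOXA5*, 0.53 for *HOXB7*, 0.98 for *HOXD8*, 1.06 for *HOXC6*, 1.10 for *HOXB9*, 1.73 for *HOXC9* and 2.43 for *HOXD10*, ranks 3290, 3524, 1511, 1347, 1259, 422 and 99.

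Outside the members, 13 HOX genes had a paired transcript, 7 of them with a mean of at least 0.1 FPKM. *HOXB5* (1.11 to 4.64 FPKM) and *HOXB3* (1.33 to 3.49), which act in the hindbrain and neck region, and *HOXC5* (0.278 to 2.51) were detected in every library, and none of these 3 was above the other 8 libraries in more than 1 of the 4. *HOXA11*, which patterns the uterus and the forearm in the mouse, read 14.0 FPKM in ML3, 0.557 in ML2 and 0.703 in wF2. It was 0.0563 in wL2 and at most 0.129 in the other 8. ML3 was thus 25.2 times above ML2 for *HOXA11*, a ratio chosen after its values were seen. *HOXC10*, a lumbar gene, was 2.89 in ML2, 1.45 in wF2, 0.219 in wL2 and 0.0493 in ML3, with at most 0.0568 in the other 8. ML2 and ML3, with nearly the same *HOXA10*, therefore differed in opposite directions for *HOXA11* and *HOXC10*. The 6 remaining genes, *HOXB1*, *HOXB13*, *HOXC12*, *HOXC13*, *HOXD1* and *HOXD13*, did not exceed 0.178 in any library. The 17 HOX genes without a paired transcript, *HOXA13* among them, were not analysed here.

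**Figure D2:**
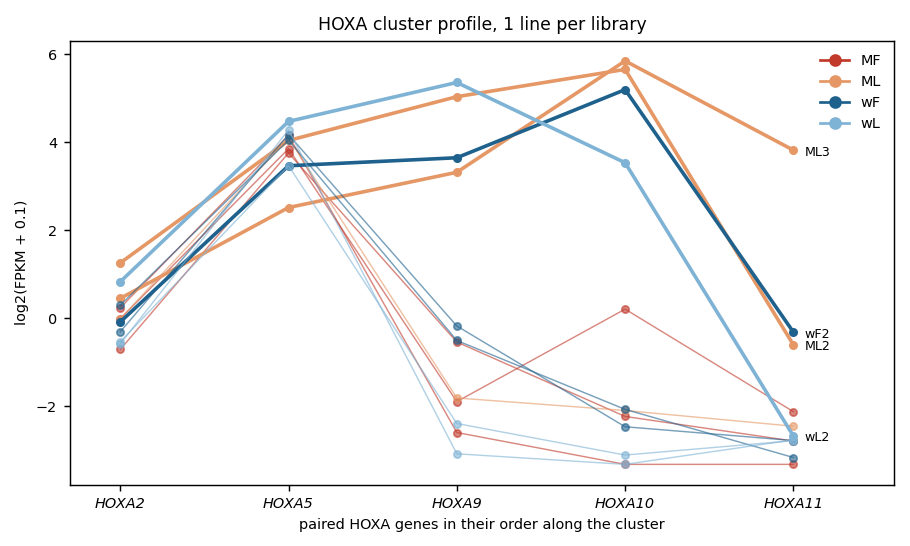
5 paired HOXA genes, from *HOXA2* to *HOXA11*, in their order along the cluster (horizontal axis) against log2(FPKM + 0.1) (vertical axis), with 1 line per library, coloured by group and drawn thick for ML2, ML3, wF2 and wL2. 8 lines fall after *HOXA5*, while ML2, ML3 and wF2 peak at *HOXA10* (50.3, 57.5 and 36.5 FPKM), wL2 at *HOXA9* (40.9), and only ML3 stays high at *HOXA11* (14.0).

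Along the paralog groups, the weight of the HOX signal moved to the high numbers in the same libraries. The 22 paired HOX genes summed to 29.9 to 40.9 FPKM in 8 libraries, and to 162 in ML2, 128 in ML3, 104 in wF2 and 125 in wL2. Paralog groups 9 to 13 made up 68.9% of that sum in ML2, 83.3% in ML3, 60.7% in wF2 and 50.5% in wL2. In the other libraries the share was 6.11, 2.45 and 5.39% in MF1, MF2 and MF3, 4.82% in ML1, 5.13% in wF1, 9.31% in wF3, 1.63% in wL1 and 2.76% in wL3. The HOX gene of highest FPKM was *HOXA5* in those 8, *HOXA10* in ML2, ML3 and wF2, and *HOXA9* in wL2. The summed FPKM of groups 1 to 5, carried mainly by *HOXA5*, was 12.1 in ML3, 16.1 in wF2, 26.9 in ML2 and 36.3 in wL2, against 19.0 to 30.3 in the 8. Within groups 1 to 5, *HOXA2* read 2.29 in ML2, 1.27 in ML3 and 1.68 in wL2, but 0.842 in wF2. Its highest level in the 8 was 1.13.

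**Figure D3:**
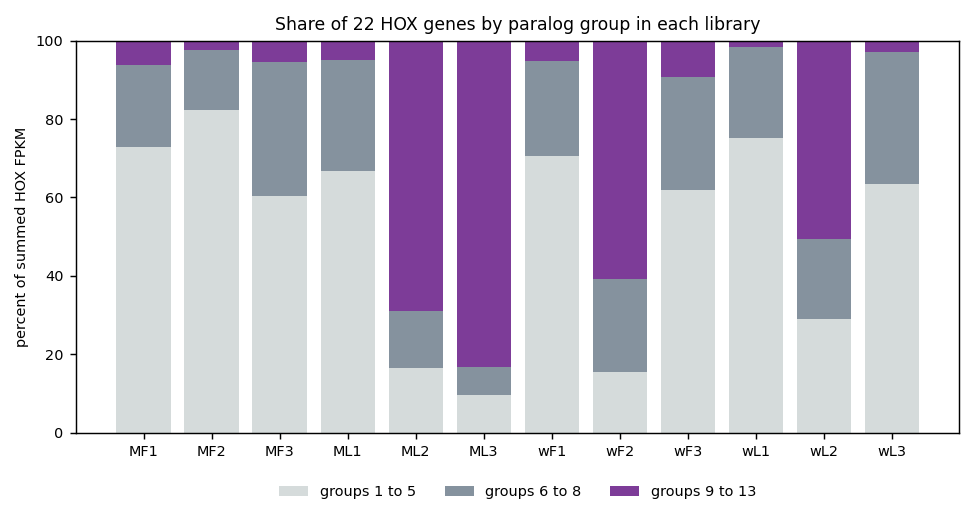
Percent of the summed FPKM of 22 HOX genes (vertical axis) that fell to paralog groups 1 to 5, 6 to 8 and 9 to 13 in each of the 12 libraries (horizontal axis). Groups 9 to 13 take 50.5 to 83.3% in ML2, ML3, wF2 and wL2 and 1.63 to 9.31% in the other 8.

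Correlations with *HOXA10* on the log2 scale are given as description only. The 12 libraries fall into 4 with high and 8 with low *HOXA10*, so a pooled r mostly restates that step, and beside it stands r over the 8. The values were r = 0.96 (0.33 over the 8) for LNC_003065, 0.91 (0.28) for *HOXA9*, 0.87 (-0.37) for *HOXD10* and 0.85 (0.14) for *HOXD8*. They were 0.68 (0.35) for *HOXB9*, 0.56 (-0.43) for *HOXB7*, 0.49 (-0.21) for *HOXC9*, 0.42 (0.14) for *HOXC6* and -0.43 (-0.19) for *HOXA5*. *HOXA9*, *HOXB9*, *HOXD10*, LNC_003065 and *HOXA10* itself read near 0 in most of the 8, so that r over the 8 rests on low FPKM. *HOXA11* (0.77, 0.72 over the 8), *HOXC10* (0.77, 0.34), *HOXA2* (0.68, 0.27) and *HOXC5* (-0.50, -0.22) were the other HOX genes with the strongest r. In the 8, *HOXA11* was at most 0.129 and *HOXC10* at most 0.0568, so their r over the 8 rests on low FPKM too. Of the 8, MF1 was highest for both *HOXA11* and *HOXA10*. The points share libraries, and cell composition differs between them, as the marker sums above show.

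Smooth muscle markers moved with *HOXA10* between the 4 libraries and the 8 but not in proportion to it. wL2 had 1.68 times the smooth muscle marker sum of wF3, the highest of the 8, and 0.58 times its stromal sum, but 83.3 times its *HOXA10* and 67.7 times its *HOXA9*. Single markers spread widely around these sums. *ACTG2* was lower in wL2 than in wF3 (297 against 341) and *ACTA2* about equal (623 against 622). The other smooth muscle markers were higher, among them *MYLK* (259 against 33.4). Of the stromal markers *PDGFRA*, *DCN* and *VIM* were higher in wL2, and *COL1A2*, *COL3A1* and *LUM* lower. ML3 had 1.99 times the smooth muscle sum of wL2, with 5.01 times the *HOXA10* and 0.24 times the *HOXA9*. These pairs of libraries were chosen after the values were seen. Ciliated and epithelial marker sums went the other way, as given above. The part of the cell types in the HOX levels was not tested.

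**Figure D4:**
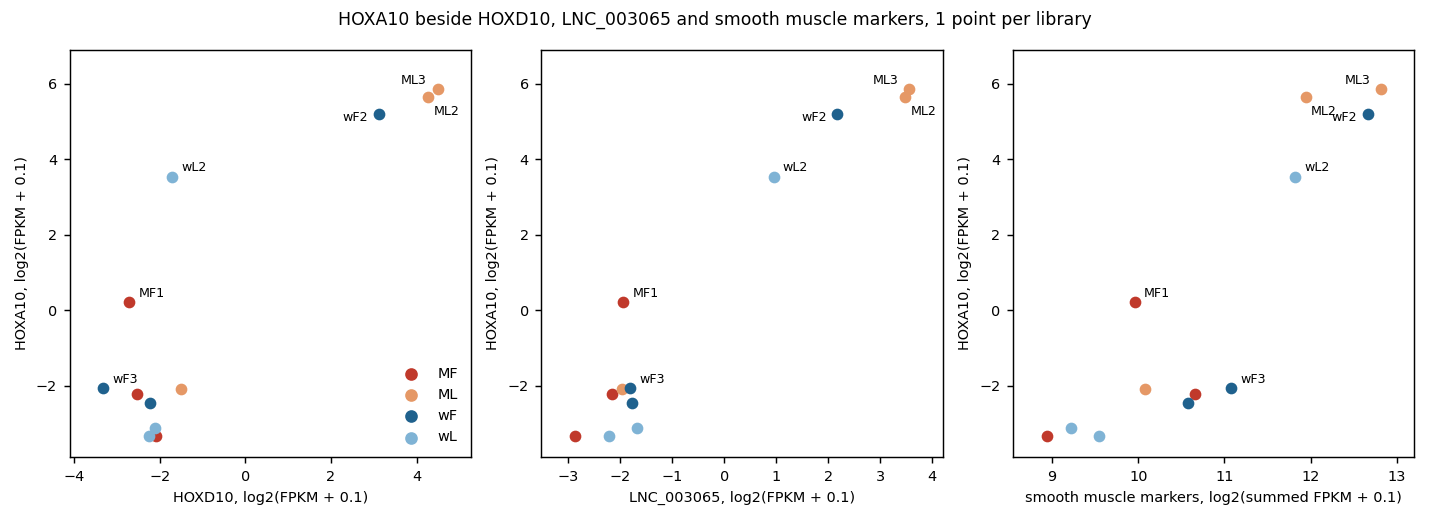
*HOXA10* as log2(FPKM + 0.1) (vertical axes) against *HOXD10*, LNC_003065 and the sum of 8 smooth muscle markers on the same scale (horizontal axes), 1 point per library and coloured by group. wL2 lies at 11.5 FPKM of *HOXA10* with *HOXD10* at 0.205, and wF3, the highest of the 8 for smooth muscle (2160 against 3626 in wL2), at 0.138.

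Whether the members differed between the phases was tested with limma over the 12 libraries, with a gene called at an adjusted p under 0.05 and a log2 change of at least 1 in size. No member was called (0 of 10), against 0.853% of all 8676 genes and 0.0583% of 15431 lncRNA rows. At an unadjusted p under 0.05 there were also 0 of 10, against 20% of genes and 9.44% of lncRNA rows. With both genotypes pooled, 9 of 10 members had the lower mean in the follicular phase, with a median log2 change of -0.54 beside -0.04 over all genes, of which 46.6% were above 0. The 2 genotypes went opposite ways. In FecB BB ewes 9 of 10 were lower in MF than in ML (median -1.50, all genes 0.06). In FecB ++ ewes 8 of 10 were higher in wF than in wL (median 0.55, all genes -0.12). The members were measured in the same libraries and several correlate with one another, so these counts are not separate observations. The follicular minus luteal change of *HOXB7* was -0.58 (SE 0.29, limma adjusted p = 0.301), of *HOXA10* -1.87 (SE 1.94, adjusted p = 0.622) and of *HOXA9* -1.42 (SE 1.64, adjusted p = 0.659). *HOXD8* gave -0.51 (SE 0.52), *HOXC9* -0.35 (SE 0.90), *HOXB9* -0.28 (SE 0.60), *HOXC6* -0.12 (SE 0.55) and *HOXA5* 0.10 (SE 0.30), with limma adjusted p from 0.619 to 0.928. *HOXD10* (-1.82, SE 1.25) and LNC_003065 (-1.75, SE 0.84) carry no p here, because the study itself had picked them between MF and ML. The SE of *HOXA10* is larger than its change, and without ML2, ML3, wF2 and wL2 its change was 0.63 and that of *HOXA9* 1.26, both with the sign turned. These libraries had been set apart with their HOX levels seen, so the values without them are no separate test. Only ML1 then remains in ML, and *HOXA10* is at most 1.05 and *HOXA9* at most 0.784 FPKM. With single libraries left out the phase change ranged from -3.17 (without ML1) to -0.74 (without wL2) for *HOXA10* and from -2.41 (without ML1) to -0.066 (without wL2) for *HOXA9*.

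Between the genotypes 0 of 10 members were called, against 0.0115% of genes and 0% of lncRNA rows. At an unadjusted p under 0.05 there were 0 of 10, against 3.19% and 3.07%. The FecB BB minus FecB ++ change was 1.05 (SE 1.94, limma adjusted p = 0.994) for *HOXA10*, -0.22 (SE 1.64, adjusted p = 0.996) for *HOXA9* and 0.68 (SE 0.60, adjusted p = 0.994) for *HOXB9*. It was -0.98 (SE 0.90) for *HOXC9*, -0.60 (SE 0.55) for *HOXC6*, -0.44 (SE 0.29) for *HOXB7*, -0.31 (SE 0.52) for *HOXD8* and -0.25 (SE 0.30) for *HOXA5*, each with a limma adjusted p of 0.994. LNC_003065 gave 0.41 (SE 0.84, limma adjusted p = 0.998). The ML libraries on which the study had picked it are part of this comparison, so its p is no separate test. *HOXD10* gave 1.41 (SE 1.25), with no p because the study had picked it between ML and wL as well. 4 of 10 were above 0, beside 38.1% of all genes, and the median was -0.24 beside -0.07 over all genes. These p-values do not show that the genotypes have the same HOX levels, since a *HOXA10* change of 1.05 came with an SE of 1.94.

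**Figure D5:**
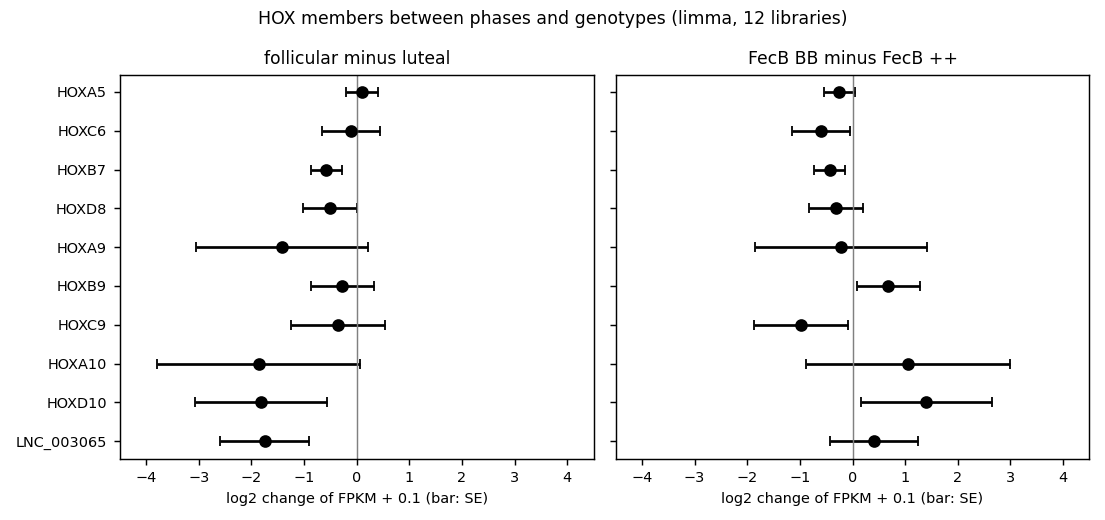
Log2 change of FPKM + 0.1 (horizontal axes) of the 10 members (vertical axis) between follicular and luteal libraries and between FecB BB and FecB ++, as points with SE bars from limma over 12 libraries. The SE is 1.94 for *HOXA10* and 1.64 for *HOXA9* but 0.30 for *HOXA5* and 0.29 for *HOXB7*, and 0 of 10 members were called in either comparison.

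In FecB BB ewes, the luteal group ML holds 2 of the 4 high libraries and the follicular group MF none. *HOXA10* averaged 36.0 ± 31.2 FPKM (SD, n = 3) in ML and 0.389 ± 0.579 in MF, *HOXD10* 14.0 ± 12.0 and 0.0873 ± 0.0440, and LNC_003065 7.62 ± 6.48 and 0.107 ± 0.0638. The groups overlapped for *HOXA10* and for the lncRNA, since ML1 read like MF. 3 of 10 members did not overlap and were lower in MF, *HOXB7* (3.36 ± 0.703 against 6.05 ± 2.0), *HOXB9* (0.0883 ± 0.0425 against 0.929 ± 1.32) and *HOXD10*. Of all genes, 14.4% did the same in that direction. For *HOXB9* the gap was narrow, since MF3 and ML1 both read 0.135 when rounded, and for *HOXB7* MF3 read 4.17 and ML3 4.27. No member was called (0 of 10), beside 1.73% of genes and 0.0194% of lncRNA rows, and 2 of 10, *HOXD10* and LNC_003065, had an unadjusted p under 0.05, as had 25.5% of genes and 9.83% of lncRNA rows. Both had been picked by the study in this comparison, so their p here and the calls that follow are no separate test. LNC_003065 was called with only the 6 libraries of MF and ML (log2 -4.01) and without ML1 (log2 -5.84).

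In FecB ++ ewes each phase held 1 high library, wF2 and wL2. No member was called (0 of 10, 0% of genes and of lncRNA rows), 0 of 10 had an unadjusted p under 0.05 (8.79% of genes, 4.78% of lncRNA rows), and 0 of 10 had groups that did not overlap (15% and 12.3%, in either direction). *HOXA10* averaged 12.2 ± 21.0 FPKM in wF and 3.83 ± 6.62 in wL (SD, n = 3), and *HOXA9* 4.60 ± 6.77 and 13.7 ± 23.6, each mean resting on 1 library. Between the genotypes in the follicular phase, 3 of 10 members were lower in MF without overlap, *HOXA9* (0.274 ± 0.276 against 4.60 ± 6.77), *HOXC9* (0.487 ± 0.289 against 2.21 ± 1.25) and LNC_003065 (0.107 ± 0.0638 against 1.60 ± 2.45), where 3.71% of genes and 4.88% of lncRNA rows were. The gaps were narrow: *HOXA9* read 0.587 in MF3 and 0.604 in wF3, and *HOXC9* 0.761 in MF3 and 0.799 in wF1. LNC_003065 read 0.160 in MF1 and 0.185 in wF3, and its wF mean came mostly from wF2 (4.43). No member was called (0.0231% of genes, 0% of lncRNA rows), and 0 of 10 had an unadjusted p under 0.05 (3.15% and 2.77%). Smooth muscle markers summed to 490 to 1621 in MF and 1525 to 6525 in wF, and their part in this was not tested.

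In the luteal phase the genotypes differed in 2 of 10 members without overlap, both higher in ML, *HOXD10* (14.0 ± 12.0 against 0.149 ± 0.0495 FPKM) and *HOXB9* (0.929 ± 1.32 against 0.0416 ± 0.0232), beside 4.83% of genes. For *HOXD10* the gap was narrow, with 0.253 in ML1 and 0.205 in wL2. The ML minus wL change of *HOXB9* was 2.01 (SE 0.85, limma adjusted p = 0.380) and fell to 0.92 without ML3. That of LNC_003065 was 2.67 (SE 1.19) and -0.02 without ML2, ML3, wF2 and wL2, with no p because its ML libraries are those on which the study had picked it. No member was called (0% of genes, 0.00648% of lncRNA rows), and 3 of 10 had an unadjusted p under 0.05, *HOXB9*, *HOXD10* and LNC_003065, beside 13.1% of genes and 5.54% of lncRNA rows. *HOXD10* had been picked by the study in this comparison as well, and LNC_003065 on the same ML libraries. Their p are therefore no separate test, and the 3 of 10 does not measure enrichment. The test of whether the phase change differs between the genotypes called 0 of 10 (0.0115% of genes, 0% of lncRNA rows). The same 3 members had an unadjusted p under 0.05 in it, with the same limit, beside 13% and 5.19%. For *HOXB9* the difference between the phase changes was -2.66 (SE 1.20, limma adjusted p = 0.377), and -1.58 without ML3. ML and MF, and ML and wL, share the ML libraries, so these comparisons are not independent. The 7 other HOX genes tested gave 0 calls in each of the 7 contrasts, and at most 2 of 7 had an unadjusted p under 0.05, between wF and wL, where 8.79% of genes had.

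Of 9 cofactor genes of the PBX, MEIS and PKNOX families, whose proteins bind DNA together with HOX proteins, 5 were paired and 0 were called in any contrast. At an unadjusted p under 0.05 there was 1 of 5 between ML and wL, where 13.1% of genes were, and 0 in the other contrasts. *MEIS1* was 67.5 (ML3) to 124 (wL2) FPKM, *MEIS2* 30.1 (wL1) to 73.8 (ML3) and *PBX2* 21.8 (ML3) to 39.9 (wF1). *MEIS2* was 49.6 in ML2, 73.8 in ML3 and 46.2 in wL2, above the 43.0 that the highest of the 8 reached, and 34.4 in wF2. *PBX2* was 24.0 in ML2, 21.8 in ML3 and 23.0 in wF2, below the lowest of the 8 (25.5), and 27.2 in wL2. *MEIS3* had a lower level, at 10.1 in ML2, 7.21 in ML3, 6.48 in wF2 and 12.7 in wL2 against at most 4.07 in the other 8, and was looked at after its values were seen. Of 21 Polycomb and trithorax genes, which keep HOX clusters silent or active, 7 were paired and 0 called. At an unadjusted p under 0.05 there were at most 3 of 7, between MF and ML, where 25.5% of genes were. *EED* read 12.7 to 19.7, *SUZ12* 10.3 to 18.5 and *ASXL1* 3.48 to 9.83 FPKM, and ML2, ML3, wF2 and wL2 did not hold the extremes except the lowest *SUZ12*, in wL2.

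Retinoic acid switches on HOX genes in the embryo, and several genes that make or bind it differed between libraries. 9 of 19 listed genes were paired and tested, and 1 was called in 1 of the 7 contrasts. *CRABP2*, which carries retinoic acid to its nuclear receptor, was 51.5, 27.4 and 14.5 FPKM in MF1, MF2 and MF3 and 4.49, 1.97 and 0.992 in ML1, ML2 and ML3. The groups did not overlap, and the log2 change was 3.65 (SE 0.77, limma adjusted p = 0.0462), where 1.73% of genes were called. The call was lost in 14 of 20 alternatives, in which the adjusted p ranged up to 0.181, and the log2 change stayed between 2.58 and 4.19. *ALDH1A2*, an enzyme that makes retinoic acid, was 13.4 in ML2, 24.7 in ML3, 8.46 in wF2 and 18.1 in wL2, below the 58.1 to 119 of the other 8. *CRABP1*, another binding protein, was 86.5 in ML2, 148 in ML3 and 87.0 in wF2, but 6.41 in wL2, within the 3.12 to 17.8 of the other 8. For *CRABP1*, as for *HOXD10*, wL2 thus read like the 8. *ALDH1A1*, of highest mean, ranged from 94.0 in wL2 to 259 in MF2.

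Of 26 genes listed for patterning of the reproductive tract, 10 were paired, 6 tested and 0 called. At an unadjusted p under 0.05 there were at most 3 of 6, between MF and ML (25.5% of genes). *HAND2*, a progesterone-dependent factor of the uterine stroma, was 14.0 in ML2, 12.0 in ML3, 25.6 in wF2 and 15.6 in wL2, above the 4.10 to 7.23 of the other 8. *TBX3* was 6.05 to 20.2, highest in ML3. *RORB*, an orphan nuclear receptor listed with earlier results of these data known, was 32.4 in ML2, 46.8 in ML3, 13.1 in wF2 and 7.43 in wL2. It was at most 0.989 elsewhere. Of 12 genes listed as responding to HOXA10 in the endometrium of mice or women, 9 were paired, 8 tested and 0 called. At an unadjusted p under 0.05 there was 1 of 8 between MF and ML (25.5% of genes), in the phase comparison (20%) and between wF and wL (8.79%). *FKBP4* (110 to 274 FPKM) and *PGR*, the progesterone receptor (27.0 to 208), were both highest in wF2. *PTGER4*, a receptor for prostaglandin E2, was 3.1 to 8.53 in ML2, ML3, wF2 and wL2 and 21.2 to 41.5 in the other 8. *PLA1A*, a phospholipase chosen after its values were seen, was 16.9 in ML2, 19.3 in ML3, 46.0 in wF2 and 52.3 in wL2, and at most 1.61 elsewhere. The median phase change was 0.03 for the cofactors, -0.26 for Polycomb and trithorax, -0.20 for retinoic acid, -0.51 for patterning and 0.41 for the HOXA10-responsive genes, beside -0.04 over all genes. The median genotype change of these lists was -0.16, 0.17, 0.06, 0.14 and -0.32, beside -0.07.

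The genes whose levels were most like *HOXA10* were sought among 6954 with a symbol and a mean of at least 1 FPKM. The 5 of highest r over the 12 libraries, with r over the 8 in second place, were *ALOX12* (0.96, 0.69) and *NDNF* (0.94, 0.63). The others were *ADAM10* (0.94, 0.22), *CCDC88A* (0.94, 0.42) and *RORB* (0.94, 0.28). *ALOX12* was 4.60, 3.07, 5.49 and 0.931 FPKM in ML2, ML3, wF2 and wL2 and at most 0.463 in the other 8. *ADAM10*, a membrane protease, went only from 23.7 to 29.4 in the 8 to 35.2 to 47.6 in the 4, so that a high r did not need a large change. The 5 of lowest r were *FZD3* (-0.97, -0.45), *SERPINF2* (-0.97, -0.008), *C10H13orf46* (-0.96, -0.26), *PTGER4* (-0.96, -0.69) and *DNAL1* (-0.96, -0.65). *SERPINF2*, the gene of the plasmin inhibitor, read 0.174 in ML2, 0.0899 in ML3, 0.250 in wF2 and 0.708 in wL2, and 42.8 to 112 in the other 8. For LNC_003065 the highest were *MEF2A* (0.97, 0.84), *RABEP1* (0.97, 0.38), *FAM162B* (0.97, 0.38), *RORB* (0.96, 0.43) and *RASD2* (0.96, 0.74). The lowest were *SERPINF2* (-0.98, -0.17), *FZD3* (-0.97, -0.42), *POPDC3* (-0.97, -0.81), *DENND2D* (-0.96, -0.35) and *C10H13orf46* (-0.96, -0.39). *MEF2A*, a transcription factor of muscle, was 20.7 to 27.9 in the 4 and 13.6 to 17.4 in the 8, and its r over the 8 was 0.84, against 0.33 for *HOXA10* and the lncRNA.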

How the data were processed

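Per the labels and the study's methods, the authors trimmed reads with fastp, aligned them to the sheep genome Oar_v3.1 with HISAT2 and assembled transcripts with StringTie (versions not given in the sources used here). They deposited 1 table of FPKM for 63643 transcripts, 43674 mRNAs and 19969 lncRNAs, which is not a table of read counts. Depth is therefore known only in relative terms: among values under 0.05 FPKM, the most common ratio between libraries gives 0.670 to 1.15 times the fragments of MF1, and 23.8 to 31.1% of transcripts are listed at 0. Low HOX values rest on few fragments, and a listed 0 does not show that a gene was silent. A figure legend of the study gives the genotypes of the groups the other way round. The sample labels were used.

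Transcripts were paired with genes by RefSeq accession, 853 with the version, 14336 without and 13 mitochondrial by gene identifier, so 15202 transcripts (34.8% of mRNAs) of 10771 genes. The reference, ARS-UI_Ramb_v3.0, is another assembly than the authors' build, so it gave names and neighbours and no coordinates. FPKM were summed per gene. log2(FPKM + 0.1) of features with a mean of at least 0.1 FPKM went into limma 3.58.1 with a trend (R 4.3.3), 4 group means and 12 libraries, in place of the count test of the study. All p are 2-sided and Benjamini-Hochberg adjusted over 8676 genes or 15431 lncRNA rows. A fold change on this scale understates changes of low genes. In data simulated for the phase contrast with 8676 genes, 42, 82, 86 and 94% of log2 changes of 1, 2, 3 and 4 were found, with 6 false calls. The 200 changed genes were drawn at random and simulated independently, each with its own spread. These rates do not hold for members of large spread, such as *HOXA10* with a within-group SD of 3.80 beside a median of 0.44. Python 3.11.15, pandas 2.3.3, numpy 2.4.6 and matplotlib 3.10.9 made the descriptions.

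The members, the gene lists and the set of 4 libraries were chosen with earlier results of these data known. Named are all members, the 4 other HOX genes of highest mean and the 4 of strongest r with *HOXA10*, from each list the 3 genes of highest mean and any called, and the 5 genes of highest and lowest r. 1 gene that this rule takes in is not reported here. Alternatives were adding 1 in place of 0.1, keeping every feature, a filter at a mean of 1 FPKM, quantile normalization, the replicate number as a block, no trend, the 6 libraries compared alone, each library left out, and ML2, ML3, wF2 and wL2 left out together.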

Additional observations from a re-analysis of the deposited data

How the results depend on the processing

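The number of HOX members called stayed at 0 under every alternative run, except between MF and ML. There it was 1 (LNC_003065) with only the 6 libraries compared and 0 to 1 when single libraries were left out. The study had picked LNC_003065 in that comparison, so these calls are no separate test. The fit with only the 6 libraries was made for the 4 comparisons of single groups. Leaving out ML2, ML3, wF2 and wL2 turned the sign of the phase change of *HOXC6* (0.019), *HOXD8* (0.079), *HOXA9* (1.26), *HOXC9* (0.44) and *HOXA10* (0.63), of the genotype change of *HOXA5* (0.014), *HOXC6* (0.049) and LNC_003065 (-0.27), and of the ML minus wL change of LNC_003065 (-0.022). That setting and a filter at a mean of 1 FPKM give no value for *HOXB9*, which they remove. The 4 libraries had been set apart with their HOX levels seen, and without them only ML1 remains in ML. The signs turned in that setting are therefore no separate test. Single libraries left out turned the sign of the phase change of *HOXA5* (-0.16 to 0.23), *HOXC6* (-0.45 to 0.28), *HOXB9* (-0.60 to 0.26) and *HOXC9* (-0.78 to 0.37) and of the genotype change of *HOXA5* (-0.40 to 0.0089), *HOXD8* (-0.58 to 0.0031), *HOXA9* (-0.98 to 1.13) and LNC_003065 (-0.059 to 1.32). The sign was kept but the size moved for the genotype change of *HOXA10* (0.37 to 2.36), *HOXD10* (0.78 to 2.39), *HOXB9* (0.14 to 1.0), *HOXC6* (-0.88 to -0.21), *HOXC9* (-1.53 to -0.25) and *HOXB7* (-0.57 to -0.19) and for the phase change of *HOXD10* (-2.81 to -1.19), LNC_003065 (-2.66 to -1.26), *HOXD8* (-0.82 to -0.24) and *HOXB7* (-0.83 to -0.45). None of these changes was called. Of 431 member values under the alternatives 27 had the sign turned.

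Of all genes, the calls between MF and ML were 84 without a filter, 55 with the replicate block, 42 without the trend, 10 with only the 6 libraries and 1 to 238 with single libraries left out, against 150. Phase calls were 5 to 102 with single libraries left out, against 74. Genotype calls were 0 with an added value of 1, with a filter at 1 FPKM and with the replicate block, 2 without a filter and without the trend, 13 without the 4 libraries and 0 to 2 with single libraries left out. Interaction calls were 3 without a filter and without the trend, 0 with a filter at 1 FPKM and with the replicate block, 15 without the 4 libraries and 0 to 7 with single libraries left out. Between wF and wL they were 1 without a filter and without the trend, 4 without the 4 libraries, 2 with the 6 compared and 0 to 2 with single libraries left out. Between MF and wF they were 1 with an added value of 1 and with the replicate block, 0 with a filter at 1 FPKM and with the 6 compared, and 1 to 4 with single libraries left out. Between ML and wL they were 1 with an added value of 1, 18 without the 4 libraries and 0 to 12 with single libraries left out. The cause was not tested.

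The replicate numbers name ewes, and the labels give no pairing by number. 7 of 18 pairs of same-numbered libraries correlated above 0.1 in their deviations (-0.249 to 0.402), and 8 of 18 correlated best with their own number. Among ML, wF and wL, every pair numbered 1 (0.267 to 0.402) or 2 (0.146 to 0.385) did both. Whether libraries of 1 number shared a step of processing was not tested. With the replicate number as a block, 0 HOX members were called in each contrast, and *CRABP2* between MF and ML had a limma adjusted p of 0.0598.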
